A study of Mus musculus with 20 samples.

Results

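The change in the effect of the Notch1 intracellular domain (NICD1) between 24 h and 48 h after transfection was measured in MLE12 cells as the difference of log2 ratios of NICD1 over empty vector, 48 h minus 24 h. MLE12 is a mouse lung epithelial line, made with SV40 large T antigen, that serves as a model of the type II cells that secrete surfactant in the air sacs. The comparison used 14 of the 20 dual-colour arrays of the series, chosen by their labelled time. At 48 h, 7 arrays set RNA of cells given the NICD1-pIRES-DsRed2 plasmid against RNA of cells given the empty vector and harvested at the same time. At 24 h, 7 arrays made the same pairing. The other 6 arrays, at 12 h, entered alternative fits, and all of them but replicate 3 entered the dye pattern described below. All cells, controls included, were MLE12 cells carried through transfection with Lipofectamine2000 in a medium that held serum, hydrocortisone, an oestradiol, insulin, transferrin and selenite. The series design calls the replicates independent. The model is a single cell line given NICD1 from a plasmid, and the labels name no sorting of transfected cells, so each RNA is that of the whole dish. A ratio can move through either of its RNAs, and fewer responding cells cannot be told apart from less RNA per cell.

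Notch receptors are cut when a ligand on a neighbouring cell engages them, and the freed intracellular domain enters the nucleus, where it joins the DNA-binding protein RBPJ and a Mastermind coactivator to switch on target genes such as those of the Hes and Hey families. NICD1 expressed from a plasmid skips the ligand and the cuts. In the lung, Notch signals are known for their part in the choice between airway cell types and in the growth of alveoli.

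The deposited log2 ratios of the 14 arrays were used as given except on 48 h replicate 3. That column was multiplied by -1, because it held Nrarp at -1.58, Cdh15 at -4.73 and Mx2 at 2.86, while the other 13 arrays held Nrarp between 1.31 and 3.24, Cdh15 between 3.36 and 5.17 and Mx2 between -4.20 and -2.28. For each array the dye pattern across genes came from arrays of the other times, leaving out replicate 3 at 12 h and 48 h. It correlated with 48 h replicate 3 at -0.29, against 0.20 to 0.35 for those 13 arrays. In the fits of all 20 arrays 12 h replicate 3 was likewise multiplied by -1. As deposited it held Nrarp at -1.93, Cdh15 at -2.67 and Heyl at -0.41 and correlated with the dye pattern at -0.28, while the other 5 arrays at 12 h held Nrarp between 1.76 and 2.52, Cdh15 between 1.98 and 2.73 and Heyl between 0.57 and 1.42 and correlated at 0.28 to 0.38. Hey1 did not separate that array, at 0.44 against -0.09 to 1.13. NICD1 RNA carried Cy5 on 3 and Cy3 on 4 arrays at 48 h, and likewise at 24 h. Replicates 5, 6 and 7 at 48 h stood apart in correlations across genes, all computed after the fitted dye effect was taken off the ratios. The correlation of any pair of them was 0.637 to 0.685. It was 0.0868 to 0.344 among 48 h replicates 1 to 4 and 0.0120 to 0.343 among arrays at 24 h. Correlations between a 48 h and a 24 h array ran from -0.0601 to 0.272. These are descriptions across genes of arrays that share a platform, and genes are not independent replicates. Cell identity could be checked only as ratios, since single-channel intensities were not analysed here.

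Of 17435 genes tested, 10 passed at an adjusted p under 0.05 (limma with Benjamini-Hochberg adjustment), which is 0.0574% of them. For 8 genes (0.0459%) the ratio rose at 48 h relative to 24 h, and for 2 (0.0115%) it fell. In all 10 the values at 48 h and at 24 h did not overlap. Over the 14772 genes with values on all 14 arrays, 128 (0.867%) had times that did not overlap, 70 of them (0.474%) with 48 h above and 58 (0.393%) with 48 h below. The genes that rose were Glod5, Adam8, Oasl2, Sbk1, Col18a1, Ifi27, Eml1 and Igtp, and those that fell were Rhov and Akr1c14. Of these 10 genes, 9 rest on 1 row of the array each, and only Col18a1 has more. The sizes of these differences lay between 0.92 and 1.67 on the log2 scale, where the median SE over all genes was 0.21. At an unadjusted p under 0.05 there were 1807 genes higher (10.4%) and 1768 lower (10.1%). Without 48 h replicates 5, 6 and 7, all 10 kept their sign and 4 passed (Adam8, Eml1, Igtp and Sbk1), of 4 genes that passed among 15905 (0.0251%). A fit of all 20 arrays, whose 12 h arrays add to the estimate of the spread, passed 350 of 17051 genes (2.05%), among them all 10. That count rests on 12 h replicate 3: the fit passed 155 of 16751 genes (0.925%) without that array, all 10 among them, and 180 of 17051 (1.06%) with it as deposited, all of the 10 but Sbk1 among them. The same fit less 48 h replicates 5, 6 and 7 passed 5 higher (0.0317%) and 3 lower (0.019%) of 15783 genes, 8 in all (0.0507%), and 7 of the 10 were among them. With 48 h replicate 3 left as deposited, 1 gene rose (Sbk1) and 1 fell (Rhov). No gene passed in limma without 24 h replicate 2, 4 or 5 or without 48 h replicate 6, where the smallest adjusted p was between 0.0517 and 0.0645 and 1309 to 1608 genes were higher and 1220 to 1525 lower at an unadjusted p under 0.05.

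Values of a gene are given below as the lowest, the median and the highest log2 ratio over its arrays, with 7 arrays at each time unless a number is given. Fitted levels and differences are on the log2 scale with their SE.

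Glod5, an X-chromosome gene for a glyoxalase domain protein, had log2 ratios of 1.44, 1.85 and 2.71 at 48 h, against -0.56, 0.37 and 0.67 at 24 h, where 6 arrays had a value. Every 48 h array was above every 24 h array, and 1 of the 24 h arrays, replicate 4, lay below the rest. The fitted level was 1.95 ± 0.17 at 48 h and 0.28 ± 0.18 at 24 h, and the difference of 1.67 ± 0.24 (adjusted p = 0.0251) was a 3.18-fold gain in the ratio.

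Adam8 on chromosome 7 encodes a membrane-anchored metalloprotease known from leukocytes and tumour cells. Its log2 ratios were 0.41, 0.80 and 2.18 at 48 h, against -0.63, -0.52 and -0.06 at 24 h. All 48 h arrays were above 0 and all 24 h arrays below it. The difference was 1.48 ± 0.24 (adjusted p = 0.0428). The ratio was between 1.41 and 2.18 on 48 h replicates 5, 6 and 7, and no higher than 0.80 on the other 4 arrays of that time. Without those 3 arrays the difference was 1.03 (adjusted p = 0.0327).

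Sbk1, a kinase gene on chromosome 7, had log2 ratios of -0.66, 0.21 and 0.27 at 48 h, against -1.56, -1.09 and -0.85 at 24 h. Its fitted ratio was near 0 at 48 h, at 0.03 ± 0.12, and well below it at 24 h, at -1.16 ± 0.12. The difference was 1.20 ± 0.17 (adjusted p = 0.0168). In the fit of all 20 arrays its level at 12 h was -2.38 ± 0.14, and it was -2.26 ± 0.14 without 12 h replicate 3 and -1.39 ± 0.45 with that array as deposited. In each of these fits the level was lowest at 12 h and highest at 48 h, though with the array as deposited the 12 h level, with its larger SE, was close to the 24 h level of -1.14 and the difference of 48 h from 24 h did not pass (adjusted p = 0.225). Sbk1 belongs to the early-fall list, a set of 10 genes that was picked on these arrays for low early ratios, so its low 12 h level is not independent evidence.

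Col18a1 on chromosome 10 encodes the basement membrane collagen from which endostatin is released. Its log2 ratios were 0.83, 1.16 and 1.51 at 48 h, against -0.32, 0.03 and 0.38 at 24 h. The fitted ratio was a 2.14-fold excess over the empty vector at 48 h and 1.02-fold at 24 h. The difference was 1.07 ± 0.14 (adjusted p = 0.0168), and its 2 rows gave 0.85 and 1.29. It was 0.93 in the fit without 48 h replicates 5, 6 and 7 (adjusted p = 0.162).

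Eml1 on chromosome 12, which encodes a microtubule-associated protein, had log2 ratios of 0.52, 0.89 and 1.37 at 48 h, against -0.26, -0.07 and 0.09 at 24 h. The 24 h arrays scattered around 0 and the 48 h arrays were all above it. The difference was 0.98 ± 0.14 (adjusted p = 0.0212), and without 48 h replicates 5, 6 and 7 it was 0.87 (adjusted p = 0.0327).

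Rhov and Akr1c14 moved the other way. Rhov on chromosome 2 encodes an atypical small GTPase. Its log2 ratios were -0.09, 0.38 and 0.83 at 48 h, against 0.95, 2.13 and 2.38 at 24 h. The fitted ratio fell to a 1.29-fold excess over the empty vector at 48 h, against 3.83-fold at 24 h. The difference was -1.57 ± 0.22 (adjusted p = 0.0168). Its level at 12 h, in the fit of all 20 arrays, was 1.44 ± 0.15, and it was 1.46 ± 0.17 without 12 h replicate 3 and 0.98 ± 0.28 with that array as deposited. The 24 h level, 1.92 to 1.94, was above the 12 h level in each of these fits. Akr1c14 on chromosome 13, an aldo-keto reductase gene whose product reduces 3-ketosteroids, had log2 ratios of -1.28, -0.82 and -0.19 at 48 h, against 0.36, 0.78 and 1.05 at 24 h. Every 48 h array lay below 0 and every 24 h array above it. The difference was -1.35 ± 0.18 (adjusted p = 0.0168). The differences were -1.40 for Rhov and -1.16 for Akr1c14 when 48 h replicates 5, 6 and 7 were left out, both with an adjusted p of 0.217.

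**Figure D1:**
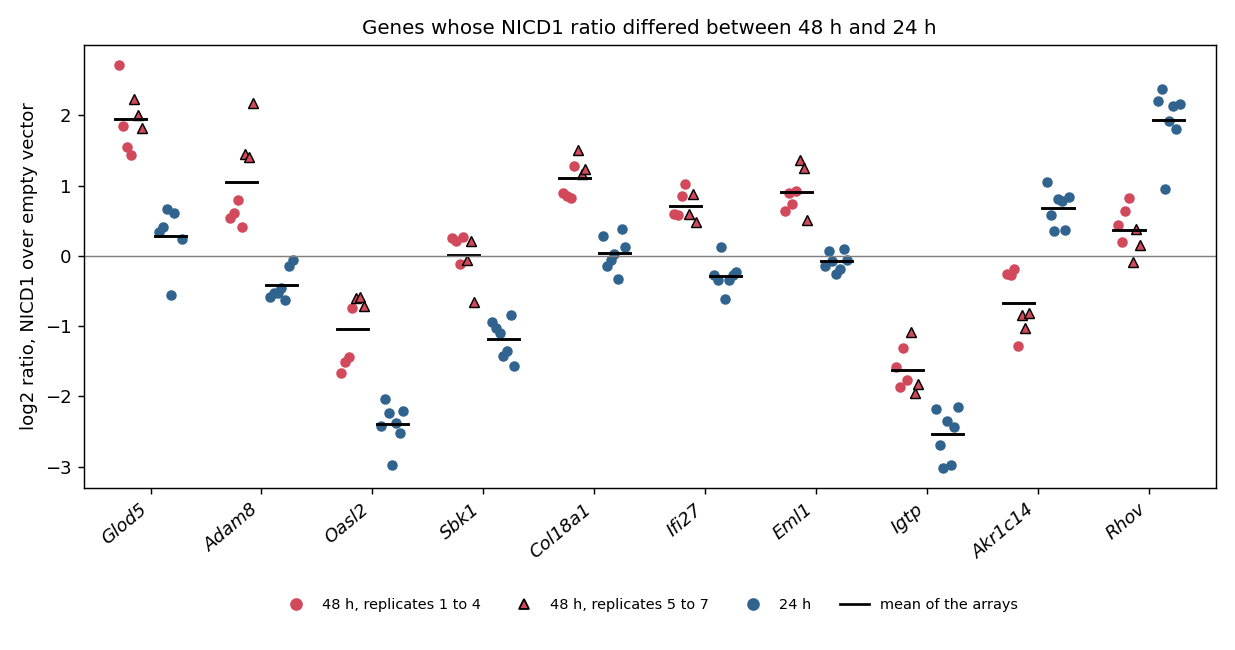
Log2 ratio of NICD1 over empty vector (vertical axis) on each array for the 10 genes that passed, with 48 h to the left of 24 h in each pair. Circles are arrays, triangles are 48 h replicates 5, 6 and 7, and bars are the means over arrays; in no gene do the times overlap, and Akr1c14 and Rhov are lower at 48 h.

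Interferon-stimulated genes encode antiviral proteins that cells make when type I or type II interferon reaches them. As a group they were far below 0 at both times, and their median ratio was -1.85 at 48 h and -1.89 at 24 h over 38 of 40 listed genes that were tested. Single members differed in size and sign. Of the 38, 2 rose (Igtp and Oasl2), none fell and 36 did not pass, where the rates over all genes were 0.0459% and 0.0115%. The median difference was 0.18, against 0.00 over all genes tested, and the differences ran from -1.42 to 1.36, with 24 positive and 14 negative. At an unadjusted p under 0.05, 13 were higher and 6 lower, where 10.4% and 10.1% of all genes were. Without 48 h replicates 5, 6 and 7 the median difference was 0.22, with 24 positive and 13 negative of 37, and 1 gene, Igtp, rose.

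The promoters of 4 of these genes are shown, of which Igtp and Oasl2 passed and Irgm1 and Ifit3 did not. Their windows differ in whether they hold the letters of the interferon-stimulated response element. A link between these letters and the difference of the times was not tested. Each is the window from 250 bases before to 50 bases after the start of the gene, on the gene's strand, from RefSeq on GRCm38.p6. Capitals mark 2 copies of GAAA with any 2 bases between them, read on either strand. Igtp lies at chr11:58199306-58199605 on the plus strand, Irgm1 at chr11:48871371-48871670 on the minus strand, Oasl2 at chr5:114896684-114896983 on the plus strand and Ifit3 at chr19:34583279-34583578 on the plus strand.
Igtp: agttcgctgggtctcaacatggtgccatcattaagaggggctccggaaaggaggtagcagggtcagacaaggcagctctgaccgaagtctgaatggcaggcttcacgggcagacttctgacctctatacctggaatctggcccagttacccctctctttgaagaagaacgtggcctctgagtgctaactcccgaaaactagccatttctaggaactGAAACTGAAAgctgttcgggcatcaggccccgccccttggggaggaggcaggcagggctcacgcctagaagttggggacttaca
Irgm1: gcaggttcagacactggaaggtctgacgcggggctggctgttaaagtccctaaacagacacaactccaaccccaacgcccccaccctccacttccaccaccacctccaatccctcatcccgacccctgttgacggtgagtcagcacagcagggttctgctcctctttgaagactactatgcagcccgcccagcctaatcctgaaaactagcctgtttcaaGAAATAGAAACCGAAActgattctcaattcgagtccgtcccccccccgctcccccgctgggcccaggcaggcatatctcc
Oasl2: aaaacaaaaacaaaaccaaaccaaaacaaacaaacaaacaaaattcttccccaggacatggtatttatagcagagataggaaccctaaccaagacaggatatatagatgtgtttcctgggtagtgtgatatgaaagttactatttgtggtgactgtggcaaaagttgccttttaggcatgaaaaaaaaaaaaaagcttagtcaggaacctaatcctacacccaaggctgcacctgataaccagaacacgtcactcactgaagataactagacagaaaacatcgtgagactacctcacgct
Ifit3: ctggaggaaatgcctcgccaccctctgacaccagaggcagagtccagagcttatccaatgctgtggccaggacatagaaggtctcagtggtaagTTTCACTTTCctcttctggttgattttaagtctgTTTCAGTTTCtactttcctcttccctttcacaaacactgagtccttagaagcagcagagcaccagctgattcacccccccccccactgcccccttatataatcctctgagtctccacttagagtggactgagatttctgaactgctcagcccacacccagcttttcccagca
The Igtp window held 1 match, the Irgm1 window 2 that overlap, the Ifit3 window 2 and the Oasl2 window none. Over the list, 28 of the 38 genes tested had a window, and 20 of their 31 windows (64.5%) held the motif, against 3.44% of all 32851 windows. A match is a description of letters and not of a bound site.

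Igtp on chromosome 11 encodes an immunity-related GTPase that acts against vacuolar pathogens. Its log2 ratios were -1.95, -1.77 and -1.08 at 48 h, against -3.01, -2.43 and -2.15 at 24 h. The ratio was a 3.17-fold deficit against the empty vector at 48 h and a 5.97-fold deficit at 24 h. The difference was 0.92 ± 0.13 (adjusted p = 0.0212), and it was 0.95 without 48 h replicates 5, 6 and 7 (adjusted p = 0.0327). Oasl2 on chromosome 5, of the oligoadenylate synthetase family, had log2 ratios of -1.67, -0.75 and -0.59 at 48 h, against -2.98, -2.38 and -2.04 at 24 h. The ratio was lower at 24 h on every array. The difference was 1.36 ± 0.21 (adjusted p = 0.0268), and it was 1.03 without 48 h replicates 5, 6 and 7 (adjusted p = 0.217). Irgm1, a regulator of the same GTPase family, just missed the threshold, with -0.67, -0.38 and -0.06 at 48 h, against -1.74, -1.22 and -0.87 at 24 h. Its difference was 0.89 ± 0.16 (adjusted p = 0.0854), and its times did not overlap.

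No other member passed. Ifit3, which encodes an antiviral tetratricopeptide protein, had log2 ratios of -3.08, -2.58 and -2.14 at 48 h, against -2.82, -2.44 and -1.90 at 24 h. Its difference was -0.23, with a 95% interval from -0.59 to 0.13. Mx2, an antiviral dynamin-like GTPase gene, was at -3.18 ± 0.14 at 48 h and -3.64 ± 0.14 at 24 h (adjusted p of the difference 0.218). Ifit1 was at -2.07 ± 0.14 at 48 h and -2.90 ± 0.14 at 24 h, a difference of 0.83 ± 0.20 that did not pass (adjusted p = 0.138). Ddx58, the gene of the RNA sensor RIG-I, had -0.84, -0.63 and -0.16 at 48 h, against -1.47, -1.08 and -0.92 at 24 h, without overlap (adjusted p = 0.138). The negative end of the list was Ifi27l2a, with -3.71, -2.54 and -1.84 at 48 h, against -2.11, -1.05 and -0.66 at 24 h. Its difference was -1.42 ± 0.33 (adjusted p = 0.138), and -0.81 without 48 h replicates 5, 6 and 7, on which the ratio lay between -3.71 and -3.08. Psmb8 and Psmb9, subunits of the immunoproteasome, had differences of -0.59 ± 0.17 and -0.62 ± 0.25 (adjusted p = 0.153 and 0.196). Irf7, the transcription factor gene that amplifies interferon production, was at -2.77 ± 0.22 at 48 h and -2.13 ± 0.22 at 24 h (adjusted p = 0.256). In the fit of all 20 arrays 8 of the 38 rose and 2 fell (Ifi27l2a and Psmb8), where 1.07% of all genes rose and 0.985% fell. Without 12 h replicate 3 that fit passed 6 higher and 1 lower (Ifi27l2a) of the 38, where 0.507% of all genes were higher and 0.418% lower, and with the array as deposited 4 and 1, where 0.557% and 0.499% were. None of 37 passed with all 20 arrays less 48 h replicates 5, 6 and 7, where 0.0317% of all genes were higher and 0.019% lower.

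**Figure D2:**
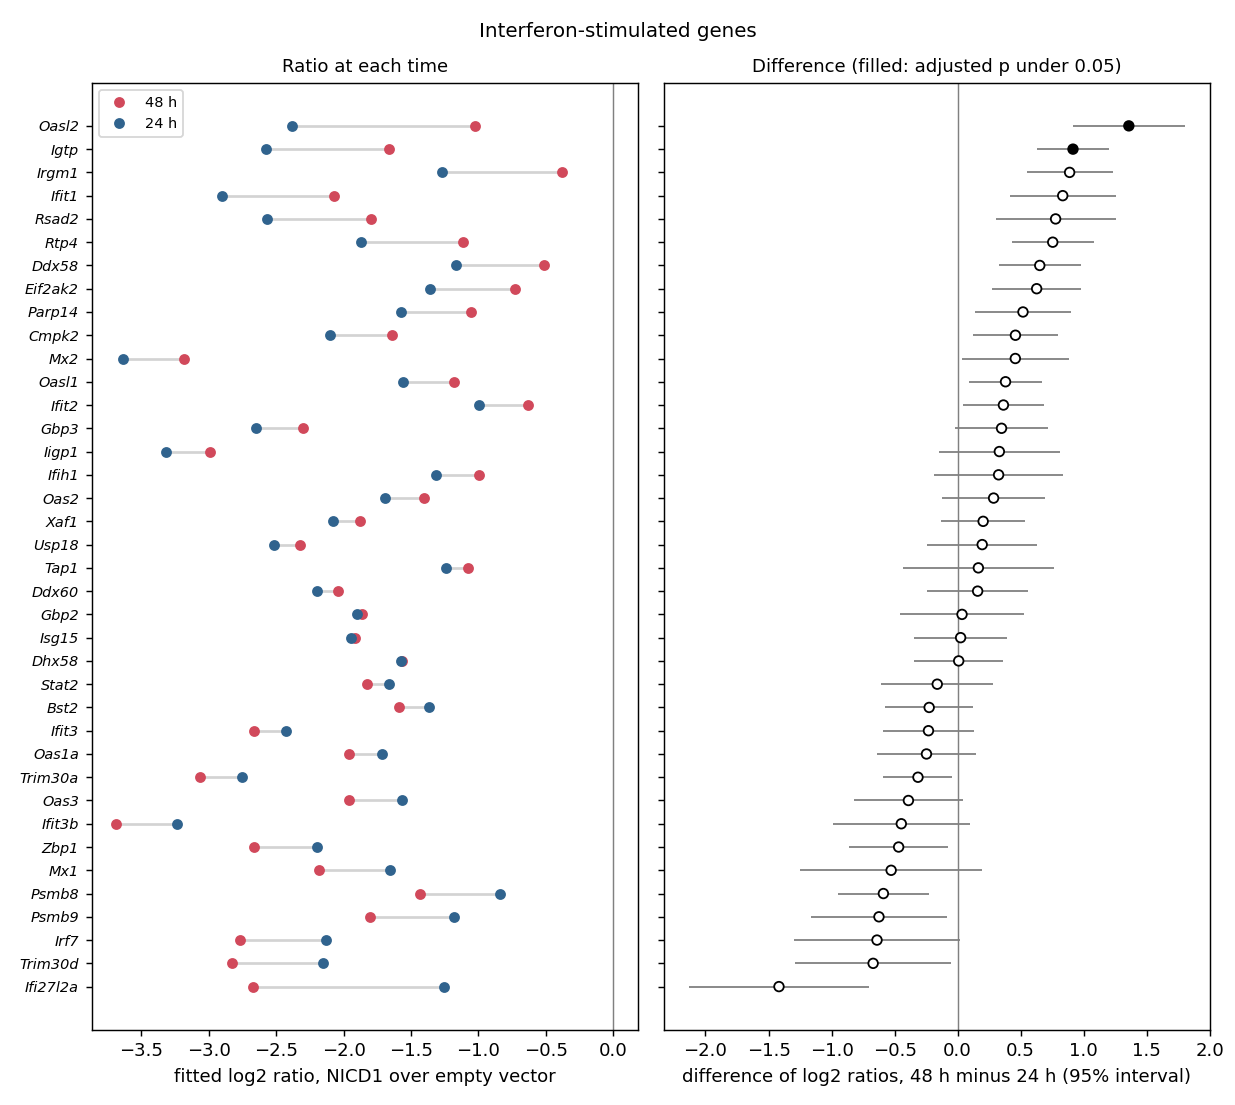
Interferon-stimulated genes, 38 tested, ordered by their difference. The left panel gives the fitted log2 ratio of NICD1 over empty vector at 48 h and 24 h, and the right panel the difference, 48 h minus 24 h, with its 95% interval; filled points, Oasl2 and Igtp, passed, and Ifi27l2a lies at the negative end with an open point.

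Ifi27, which the list does not hold, encodes a small mitochondrial protein of the family of Ifi27l2a, and both are on chromosome 12. Its log2 ratios were 0.48, 0.60 and 1.02 at 48 h, against -0.62, -0.28 and 0.12 at 24 h. Its difference was 0.99 ± 0.13 (adjusted p = 0.0168), while that of Ifi27l2a had the opposite sign. Without 48 h replicates 5, 6 and 7 it was 1.03 (adjusted p = 0.0801). Among the cytokine genes upstream of these responses, Ifnb1, the gene of interferon beta, was at -3.13 ± 0.16 at 48 h and -3.40 ± 0.16 at 24 h, a difference of 0.27 with a 95% interval from -0.22 to 0.75. Il6 was at -1.60 ± 0.14 at 48 h and -1.52 ± 0.14 at 24 h. Cxcl10, an interferon-induced chemokine gene, was at -0.73 ± 0.21 at 48 h and -1.89 ± 0.21 at 24 h (adjusted p of the difference 0.153). Its ratio was between -0.35 and 0.58 on 48 h replicates 5, 6 and 7 and at most -1.02 on the other 4 arrays of that time. None of the 21 cytokine genes tested passed; their median difference was 0.27, and 0.20 without those 3 arrays.

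The Notch targets Nrarp, Hey1 and Heyl were above the empty vector at both times, and none of the 11 target genes tested passed the test of the difference. Hey1 on chromosome 3, a transcriptional repressor of the Hey family, had log2 ratios of 1.87, 2.61 and 3.42 at 48 h, against 0.62, 1.46 and 1.92 at 24 h. The groups touched in 1 place, since the lowest 48 h value lay just under the highest 24 h value. The difference was 1.18 ± 0.24 (adjusted p = 0.124, and 0.0388 in the fit of all 20 arrays). Notch3 on chromosome 17, a receptor gene that Notch activity can induce, had 0.17, 0.99 and 1.43 at 48 h, against -0.59, -0.17 and 0.07 at 24 h. These did not overlap, and the difference of 1.13 ± 0.19 just missed the threshold (adjusted p = 0.0664). Hes1, a repressor gene that responds early and oscillates in some tissues, had -0.21, 0.23 and 1.01 at 48 h, against 0.20, 0.95 and 1.65 at 24 h. Its difference was -0.72 ± 0.24 (adjusted p = 0.161). Nrarp, whose product limits NICD activity, was at 2.30 ± 0.21 at 48 h and 2.61 ± 0.21 at 24 h, and Heyl at 1.69 ± 0.30 at 48 h and 1.81 ± 0.30 at 24 h. The 95% intervals of their differences were -0.94 to 0.31 for Nrarp and -1.02 to 0.77 for Heyl. Over the 11 target genes tested the median difference was 0.10, with 6 positive and 5 negative. In the fit of all 20 arrays 2 of the 11 rose and none fell, where 1.07% of all genes rose. There were also 2 without 12 h replicate 3, where 0.507% of all genes rose, and with that array as deposited, where 0.557% did. None passed with all 20 arrays less 48 h replicates 5, 6 and 7.

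Components of the pathway had a median difference of 0.28 over 24 genes, with 21 positive and 3 negative, and none passed. The median was 0.10 when 48 h replicates 5, 6 and 7 were left out, with 17 positive and 5 negative of 22. No component passed with all 20 arrays less those 3. Notch1 was at 1.08 ± 0.14 at 48 h and 0.61 ± 0.14 at 24 h (adjusted p of the difference 0.219); the positions of its 11 rows in the gene were not analysed here, so RNA of the plasmid and of the cell's own gene could not be told apart. The ligand gene Dll1 had -0.63, -0.36 and 0.09 at 48 h, against -1.28, -0.99 and -0.37 at 24 h, a difference of 0.61 ± 0.17 (adjusted p = 0.153, and 0.0464 in the fit of all 20 arrays, but 0.0556 in that fit without 12 h replicate 3 and 0.053 with it as deposited). The ligand gene Jag2 was between 1.81 and 2.21 on 48 h replicates 5, 6 and 7, 0.37 to 0.74 on the other 4 arrays of that time, and -0.11 to 0.55 at 24 h. Its difference was 0.87 ± 0.30 (adjusted p = 0.161), and 0.26 without those 3 arrays. The part of whatever sets those arrays apart was not tested.

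Several genes with high ratios under NICD1 did not pass the test of the difference. Cdh15, the M-cadherin gene, had log2 ratios of 3.36, 4.22 and 5.17 at 48 h, against 3.61, 4.04 and 4.38 at 24 h, and its difference of 0.27 had a 95% interval from -0.26 to 0.80. Il33, the gene of an alarmin cytokine, was at 2.86 ± 0.21 at 48 h and 2.71 ± 0.21 at 24 h. Nts, the neurotensin gene, was at 2.79 ± 0.29 at 48 h and 1.97 ± 0.29 at 24 h (adjusted p = 0.268). Pkp1, a desmosomal plaque gene, was at 2.49 ± 0.16 at 48 h and 1.78 ± 0.16 at 24 h (adjusted p = 0.159). Krt16, a stress-induced keratin gene, was at 1.05 ± 0.15 at 48 h and 1.31 ± 0.15 at 24 h (adjusted p = 0.506).

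A set of 10 genes led by Hspb9, the early-fall list, had been picked on these same arrays for low ratios soon after transfection, so its direction is not independent evidence. Of the 10, 1 rose (Sbk1), none fell and 9 did not pass, where 0.0459% of all genes rose and 0.0115% fell. All 10 differences were positive, with a median of 0.68. The fitted ratios of the 10 ran from -0.58 to 0.03 at 48 h and from -1.72 to -0.21 at 24 h, and from -2.73 to -0.94 at 12 h in the fit of all 20 arrays. At 12 h they ran from -2.59 to -0.83 without 12 h replicate 3 and from -2.05 to -0.49 with that array as deposited. In the fit of all 20 arrays 5 of the 10 rose, where 1.07% of all genes did. Without 12 h replicate 3 that fit passed 4 higher, where 0.507% of all genes were. With the array as deposited none rose, where 0.557% of all genes did. All 20 arrays less 48 h replicates 5, 6 and 7 passed 1 of 9 as higher, where 0.0317% of all genes were. Hspb9, a small heat shock protein gene, had log2 ratios of -1.36, -0.63 and 0.17 at 48 h, against -2.42, -1.88 and -0.96 at 24 h (difference 1.14 ± 0.24, adjusted p = 0.124). Gna15, a G protein alpha subunit gene, had -0.76, -0.37 and -0.04 at 48 h, against -2.15, -1.20 and -0.69 at 24 h (difference 1.03 ± 0.20, adjusted p = 0.12). Zscan10, a zinc finger gene of pluripotent cells, had -0.84, -0.49 and 0.14 at 48 h, against -1.77, -1.51 and -0.98 at 24 h, without overlap (difference 0.94 ± 0.16, adjusted p = 0.0664). Klk4, a kallikrein protease gene, had -0.68, -0.24 and 0.09 at 48 h, against -1.35, -1.10 and -0.43 at 24 h (difference 0.75 ± 0.17, adjusted p = 0.138). Without 48 h replicates 5, 6 and 7 the median was 0.90 over 9 genes, with 8 positive.

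**Figure D3:**
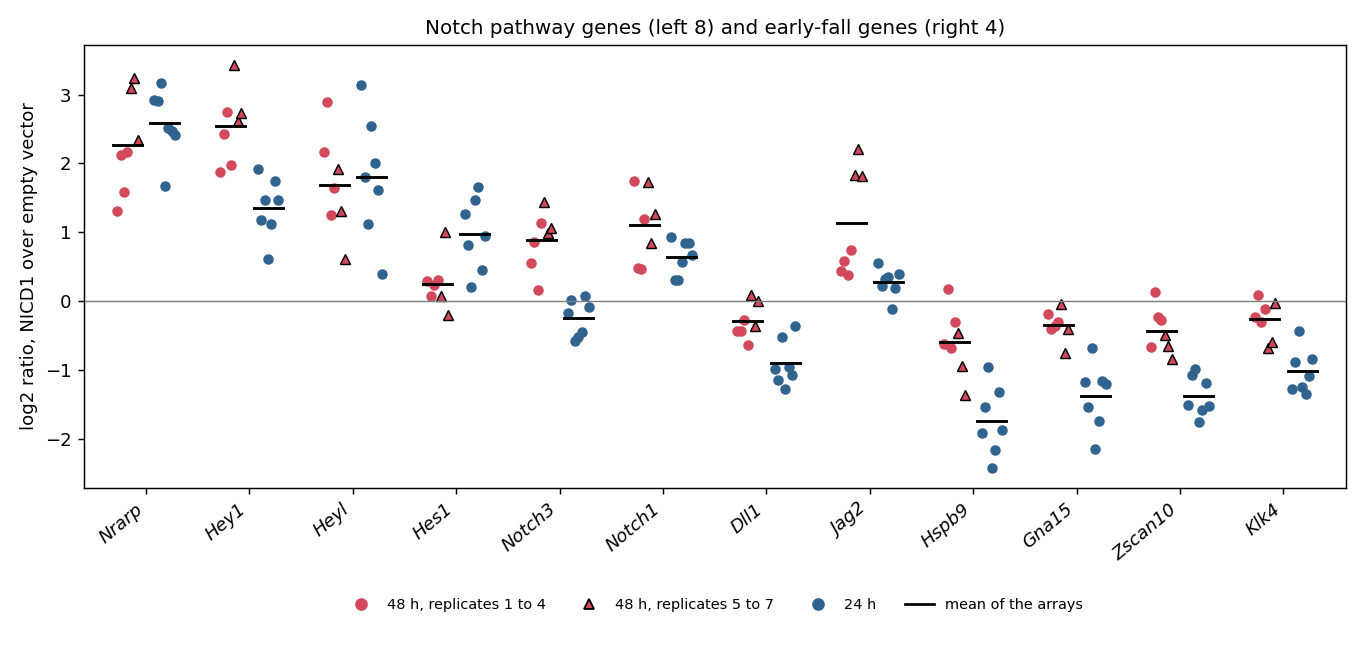
Log2 ratio of NICD1 over empty vector (vertical axis) on each array for 8 Notch pathway genes and 4 genes of the early-fall list, with 48 h to the left of 24 h. Triangles are 48 h replicates 5, 6 and 7 and bars are means over arrays; Notch3 and Zscan10 have times that do not overlap, while Nrarp and Heyl overlap widely.

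Collagen chain genes had mostly positive differences. Of 22 tested, 1 rose (Col18a1), none fell and 21 did not pass, where the rates over all genes were 0.0459% and 0.0115%. With all 20 arrays 4 rose and none fell, where 1.07% of all genes rose, and without 12 h replicate 3 there were also 4, where 0.507% rose. With that array as deposited 3 rose, where 0.557% of all genes did. With all 20 arrays less 48 h replicates 5, 6 and 7, 1 of 20 rose, where 0.0317% of all genes did. Their median difference was 0.44, with 17 positive and 5 negative, and 12 were higher and none lower at an unadjusted p under 0.05, where 10.4% of all genes were higher. Col16a1, a fibril-associated collagen gene, had log2 ratios of 0.42, 1.49 and 1.89 at 48 h, against -0.37, 0.11 and 0.38 at 24 h, without overlap (difference 1.18 ± 0.25, adjusted p = 0.124). Col6a1, a gene of the beaded-filament collagen, had 2.10, 2.55 and 4.67 at 48 h, against 0.59, 1.57 and 2.34 at 24 h (difference 1.28 ± 0.37, adjusted p = 0.153). Col1a1, the main chain of type I collagen, was at 1.09 ± 0.14 at 48 h and 0.23 ± 0.14 at 24 h (adjusted p = 0.138). Col5a3 was at 1.84 ± 0.12 at 48 h, where 6 arrays had a value, and 1.06 ± 0.11 at 24 h (adjusted p = 0.138). The list's median ratio was 0.78 to 0.86 on 48 h replicates 5, 6 and 7, 0.25 to 0.42 on replicates 1 to 4 and -0.04 to 0.22 on the 24 h arrays. Without replicates 5, 6 and 7 the median difference was 0.30, with 17 positive and 4 negative of 21, and none passed; 5 were higher at an unadjusted p under 0.05, where 5.19% of all genes were in that fit. Markers of fibroblasts, 9 tested, had a median difference of 0.04, those of endothelium, 7 tested, 0.03, and those of macrophages and leukocytes, 7 tested, 0.13; none passed.

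Genes of mitochondrial translation, respiration and the proteasome had mostly negative differences, and none passed over the 14 arrays. In the fit of all 20 arrays 10 of 73 mitochondrial ribosomal genes and 4 of 74 respiratory chain genes fell and none of 31 proteasome genes did, where 0.985% of all genes fell. Without 12 h replicate 3 the counts were 2, 0 and 0, where 0.418% of all genes fell, and with that array as deposited they were 4, 1 and 0, where 0.499% did. With all 20 arrays less 48 h replicates 5, 6 and 7, no gene of these 3 lists passed, where 0.019% of all genes fell. The mitochondrial ribosomal proteins, 73 tested, had a median difference of -0.38, with 10 positive and 63 negative. At an unadjusted p under 0.05, 36 were lower and none higher, where 10.1% of all genes were lower. Their median ratio was -0.84 to -0.63 on 48 h replicates 5, 6 and 7, -0.40 to -0.05 on replicates 1 to 4 and -0.12 to 0.05 on the 24 h arrays. Without replicates 5, 6 and 7 the median difference was -0.15, with 60 of 73 negative, and 13 were lower at an unadjusted p under 0.05, where 4.41% of all genes were in that fit. Mrpl46 had log2 ratios of -2.09, -0.98 and -0.23 at 48 h, against -0.48, -0.03 and 0.26 at 24 h (difference -1.03 ± 0.29, adjusted p = 0.153). Mrpl1 had -1.47, -0.91 and -0.21 at 48 h, against -0.17, -0.02 and 0.05 at 24 h, without overlap (adjusted p = 0.138). The respiratory chain and ATP synthase, 74 tested, had a median difference of -0.31, with 58 negative, and -0.14 without those 3 arrays. Cox6b1, a subunit of cytochrome c oxidase, was at most -1.31 on replicates 5, 6 and 7 but no lower than -0.47 on the other 4 arrays of that time, and its difference was -0.86 ± 0.30 (adjusted p = 0.161). The constitutive proteasome, 31 tested, had a median difference of -0.34, with 30 negative, and -0.15 without those arrays. Its 1 positive member was Psmd3, a subunit of the regulatory particle, at 0.87 ± 0.34 (adjusted p = 0.190), and Psmb7, a catalytic-core subunit, was at -0.96 ± 0.28 (adjusted p = 0.153). The cytosolic ribosomal proteins, 48 tested, had a median difference of -0.16, with 30 negative, and -0.04 without those arrays.

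Immediate early and ERK response genes, which answer growth signals within minutes, had a median difference of 0.37 over 19 genes, with 13 positive, and none passed. Their median was 0.11 over 18 genes when 48 h replicates 5, 6 and 7 were left out. Egr1, a zinc finger transcription factor gene, was between 1.69 and 2.07 on 48 h replicates 5, 6 and 7, 0.39 to 0.77 on the other 4 arrays of that time, and 0.04 to 0.69 at 24 h. Its difference was 0.84 ± 0.28 (adjusted p = 0.161), and 0.28 without those 3 arrays. Fos was at 1.03 ± 0.13 at 48 h and 0.72 ± 0.13 at 24 h (adjusted p = 0.353). Fatty acid synthesis genes, 18 tested, had a median difference of 0.24, and 0.13 without 48 h replicates 5, 6 and 7. Fasn, the fatty acid synthase gene, was at 1.04 ± 0.20 at 48 h and 0.17 ± 0.20 at 24 h (adjusted p = 0.159), and its difference was 0.32 without those arrays. Wnt targets, 11 tested, had a median difference of 0.27, with 10 positive, and 0.13 without 48 h replicates 5, 6 and 7, with 9 positive. Axin2, a negative regulator that Wnt signals induce, had log2 ratios of -0.05, 0.90 and 1.41 at 48 h, against -1.02, -0.42 and 0.08 at 24 h. Its difference was 1.31 ± 0.26 (adjusted p = 0.122), and 1.39 without replicates 5, 6 and 7.

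Cell cycle genes did not pass either. Mki67, a marker of cycling cells, had log2 ratios of 0.16, 1.18 and 1.80 at 48 h, against -0.28, 0.21 and 0.55 at 24 h (difference 0.95 ± 0.25, adjusted p = 0.153). Foxm1, a driver of mitotic genes, was at 0.90 ± 0.17 at 48 h and -0.03 ± 0.17 at 24 h (adjusted p = 0.153). Cdt1, a replication licensing gene, was at 1.02 ± 0.25 at 48 h and -0.01 ± 0.25 at 24 h (adjusted p = 0.161), and without replicates 5, 6 and 7 its difference was 0.34. The medians of the lists were 0.07 for G2/M and mitosis, 23 tested, and 0.07 for G1/S and replication, also 23 tested. At an unadjusted p under 0.05, 7 G2/M genes were higher and none lower, where 10.4% of all genes were higher. In the fit of all 20 arrays 3 G2/M genes and 1 G1/S gene rose, where 1.07% of all genes did. Without 12 h replicate 3 the counts were 3 and 0 (0.507% of all genes), and the same with it as deposited (0.557%). No G2/M or G1/S gene passed with all 20 arrays less 48 h replicates 5, 6 and 7. Ddit3, the stress transcription factor gene CHOP, had -1.55, -0.97 and -0.57 at 48 h, against -0.78, -0.29 and 0.25 at 24 h (difference -0.72 ± 0.15, adjusted p = 0.122). Its list, the ATF4 and amino acid response, had a median of -0.04 over 22 genes, with 11 positive and 11 negative.

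Alveolar type II and surfactant genes, 16 tested, had a median difference of 0.20, with 10 positive, and type I markers, 12 tested, -0.09, with 5 positive; none passed. Foxa2, a transcription factor gene of lung epithelium, was between 1.37 and 2.04 on 48 h replicates 5, 6 and 7, at most 0.20 on the rest of the 48 h arrays, and between -0.18 and 0.19 at 24 h. Its difference was 0.72 ± 0.32 (adjusted p = 0.227), and 0.02 without those 3 arrays. Pdpn, the podoplanin gene of type I cells, was between -1.55 and -1.41 on the same 3 arrays and between -0.15 and 0.46 on the rest of that time. Its difference was -0.81 ± 0.36 (adjusted p = 0.227), and -0.09 without them. Napsa, an aspartic protease gene of type II cells, had log2 ratios of -0.72, -0.11 and 0.86 at 48 h, against -0.50, 0.75 and 2.09 at 24 h, with wide overlap (adjusted p = 0.258).

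Keratin and basal cell markers had small medians, -0.10 over 15 keratin genes and 0.14 over 10 basal markers, and none passed. Krt18, a keratin of simple epithelia, had log2 ratios of -0.84, -0.07 and 0.37 at 48 h, against 0.18, 0.35 and 0.61 at 24 h. Its difference was -0.60 ± 0.17 (adjusted p = 0.153), and -0.85 without 48 h replicates 5, 6 and 7. Krt14, a basal-layer keratin, had -0.51, -0.36 and -0.03 at 48 h, against 0.03, 0.12 and 0.45 at 24 h, without overlap (difference -0.48 ± 0.13, adjusted p = 0.153). Itgb4, the integrin gene of hemidesmosomes, was at 0.87 ± 0.17 at 48 h and 0.17 ± 0.17 at 24 h (adjusted p = 0.164). Pkp2, a desmosomal plaque gene, was at 0.85 ± 0.20 at 48 h and -0.07 ± 0.20 at 24 h (adjusted p = 0.154). Mesenchymal transition genes, 16 tested, had a median difference of 0.25, and 0.02 without 48 h replicates 5, 6 and 7. Vim, the vimentin gene, overlapped widely, with -0.49, 0.47 and 1.67 at 48 h, against -0.78, 0.07 and 0.68 at 24 h (adjusted p = 0.401). Tgfb3, a ligand gene of the TGF-beta family, had 0.21, 1.01 and 1.48 at 48 h, against -0.65, 0.00 and 0.29 at 24 h (difference 0.89 ± 0.22, adjusted p = 0.153, and 0.0423 in the fit of all 20 arrays). The TGF-beta ligands and targets, 13 tested, had a median of 0.12.

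NRF2 targets, the genes of the oxidative stress response, had a median of 0.28 over 14 genes, and -0.08 without 48 h replicates 5, 6 and 7. Nqo1, a quinone reductase gene, was at -0.52 ± 0.14 at 48 h and 0.09 ± 0.14 at 24 h (adjusted p = 0.157), opposite in sign to Fth1, the ferritin heavy chain gene, at 0.66 ± 0.18 at 48 h and 0.03 ± 0.18 at 24 h (adjusted p = 0.2). Sesn2, a sestrin gene that stress induces, was at 0.70 ± 0.19 at 48 h and -0.08 ± 0.19 at 24 h (adjusted p = 0.161). p53 targets, 15 tested, had a median of 0.12, cholesterol synthesis, 19 tested, -0.03, and hypoxia and glycolysis, 22 tested, -0.04. In all, 33 of 36 lists held no gene that passed, and their median differences ran from -0.38 to 0.37. Of the 10 genes that passed, 6 were in none of the lists.

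**Figure D4:**
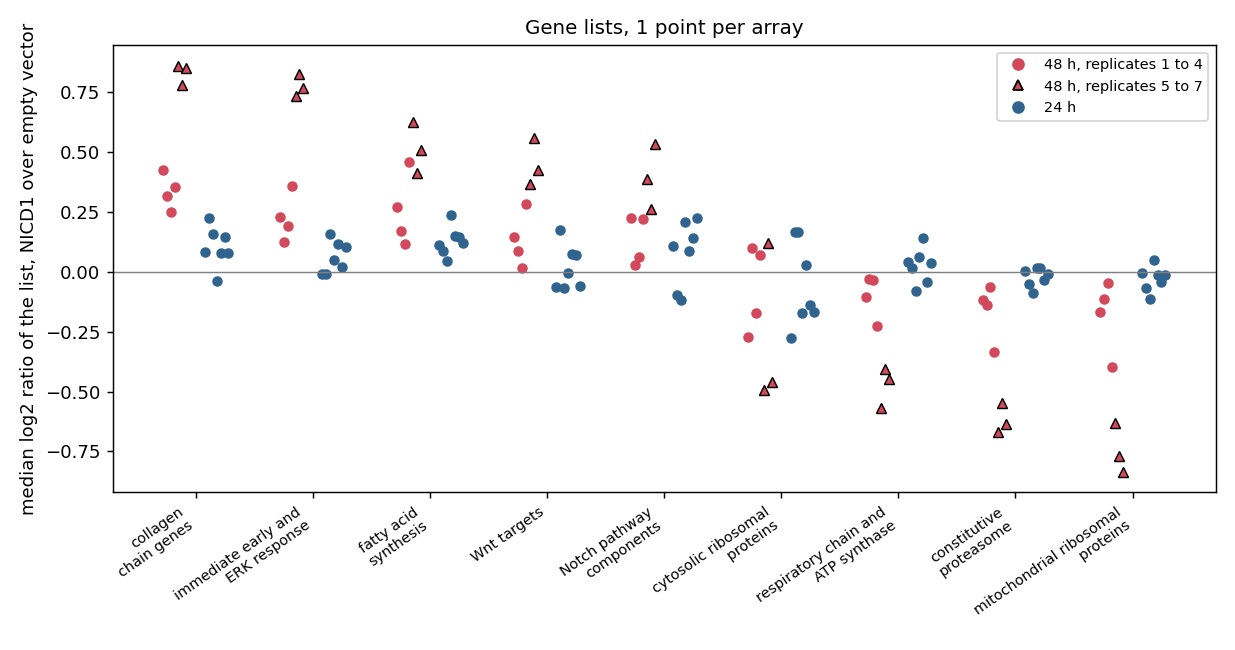
Median log2 ratio of NICD1 over empty vector (vertical axis) of 9 gene lists, chosen after their values were seen, with 1 point per array and 48 h to the left of 24 h. Triangles are 48 h replicates 5, 6 and 7. They lie farther from 0 than all other arrays in every list but fatty acid synthesis and cytosolic ribosomal proteins.

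The spread of the ratios over genes was compared as the SD across genes on each array. It was 0.661 ± 0.104 on the 48 h arrays and 0.564 ± 0.0599 on the 24 h arrays (mean ± SD, n = 7 each), a difference of 0.0967 (two-sided exact permutation test, p = 0.0519). The ranges overlapped, at 0.510 to 0.814 at 48 h and 0.494 to 0.655 at 24 h. Without 48 h replicates 5, 6 and 7 the difference was 0.0420 (two-sided exact permutation test, p = 0.303). Against 0, 1888 genes were higher and 1927 lower at 48 h (10.8% and 11.1%), and 43 higher and 200 lower at 24 h (0.247% and 1.15%). A gene that passed at only 1 time is not thereby shown to differ between them. The difference itself reached 1 log2 unit in size in 360 genes, and 7 of these passed.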

How the data were processed

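Dual-colour Agilent arrays measured NICD1 RNA against empty vector RNA, on 7 arrays at 48 h and 7 at 24 h. The values deposited by the authors are log2 ratios, judged so from their signs and range; per the submitters' processing notes they used limma. The sources used here give no background correction, normalisation, centring or direction of the ratios. The medians of the columns were between -0.0179 and 0.0195, and 14.1% of the values on these arrays were missing. Depth has no meaning here, and the number of arrays limits the precision. No column of another series was in the table.

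A gene was the mean of its rows with 1 symbol and a value on 4 or more arrays of each time (33653 rows had 1 symbol, 56 several, 11511 were not listed). limma 3.58.1 in R 4.3.3 fitted 2 time coefficients and a dye term over 14 arrays.

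The members and gene lists were chosen with earlier results of these data known. Genes named in the text are the 12 highest and lowest passing with and without 48 h replicates 5, 6 and 7, the next 8 each way, up to 4 passing and 2 other genes with the largest difference per list, and 25 well-known genes of the response. The following others were chosen after their values were seen: Ifit3, Ddx58, Col5a3, Mrpl1, Zscan10, Klk4, Eif2ak2 and Usp18. Same-numbered arrays of the 2 times had deviations that correlated at -0.0986 to 0.125, so the numbers were not taken as pairs. Alternatives changed the samples, dye term, weights, scaling, filter, rows and prior. Some list members were not analysed here.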

Additional observations from a re-analysis of the deposited data

Results flagged for a closer look

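The differences of 10 genes between the effects at 48 h and 24 h passed the test of the difference: 1.67 for Glod5, 1.48 for Adam8, 1.36 for Oasl2, 1.20 for Sbk1, 1.07 for Col18a1, 0.99 for Ifi27, 0.98 for Eml1, 0.92 for Igtp, -1.35 for Akr1c14 and -1.57 for Rhov, all on the log2 scale.

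In 12 of 184 groups of arrays tested, 1 array lay far from the others of its time, and chance gives about 1 in 20 such groups. At 48 h these were Nts at 5.23 on replicate 1 (the others 1.77 to 3.17), Col6a1 at 4.67 on replicate 2 (2.10 to 3.20), Dsc1, a desmosomal cadherin gene, at -2.53 on replicate 5 (-0.31 to 1.02), Hes1 at 1.01 on replicate 6 (-0.21 to 0.30), Sbk1 at -0.66 on replicate 7 (-0.11 to 0.27) and Eif2ak2, the gene of the RNA-activated kinase PKR, at -0.02 on replicate 7 (the others at most -0.67). At 24 h they were Krt6a at 1.61 on replicate 1 (-1.92 to -1.02, of 5 arrays with a value), Rhov at 0.95 on replicate 3 (1.81 to 2.38), Ifit3b at -4.38 on replicate 3 (-3.28 to -2.72), Usp18 at -3.17 on replicate 3 (-2.55 to -2.24), Glod5 at -0.56 on replicate 4 (0.24 to 0.67) and Foxm1 at 0.23 on replicate 6 (-0.19 to -0.02). Among the genes that passed, Rhov, Sbk1 and Glod5 have such an array, and in each its value still lay on the same side of every array of the other time.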

How the results depend on the processing

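Counts of genes that passed depended on the processing, while all 10 genes kept their sign under every alternative run. The counts were 182 higher and 168 lower with all 20 arrays, 85 and 70 with those less 12 h replicate 3 and 95 and 85 with that array as deposited (both chosen after seeing the data), 4 and 0 without 48 h replicates 5, 6 and 7, 5 and 3 with all 20 arrays less those 3 (chosen after seeing the data), 1 and 1 with 48 h replicate 3 as deposited (Sbk1 and Rhov), 13 and 3 with arrays scaled to 1 spread (6 of the 10 among them), 2 and 2 with rows fitted singly, and 2 and 1 with a robust trended prior. With the replicate number as a block, though the numbers do not pair the arrays, the counts were 0 and 0 in limma (1574 and 1529 at an unadjusted p under 0.05), and no array correlated best with its own number. Leaving out 1 array gave 0 to 10 higher and 0 to 9 lower: 0 and 0 without 24 h replicate 2, 4 or 5 or 48 h replicate 6, 3 and 0 without 24 h replicate 1, 5 higher without 24 h replicate 3 or 6 or 48 h replicate 5, 9 lower without 48 h replicate 2 and 5 lower without 48 h replicate 3. The cause of these changes was not tested.

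The difference in spread was 0.118 (exact permutation p = 0.0425) with 6 or more arrays required per time, and 0.174 (p = 0.0449) by the median absolute deviation. With arrays scaled to 1 spread the difference in SD was -0.137 (exact permutation p = 0.0752). That scaling divides each array by its own median absolute deviation across genes, so it cannot show whether the spread differed. Leaving out 1 array gave a difference in spread of 0.0750 to 0.126, with exact permutation p from 0.0117 to 0.104. The difference passed without 24 h replicate 3 or 4 or 48 h replicate 2 or 3. All p-values of the spread are from two-sided exact permutation tests. Of 81 other named genes, 16 changed sign and 29 passed in some alternative.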
